A study of Zea mays with 4 samples.

Results

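TCP genes encode plant transcription factors that share a DNA-binding domain named after TEOSINTE BRANCHED1 of maize, CYCLOIDEA of snapdragon and the PROLIFERATING CELL FACTORS of rice. The 6 genes described here are TCP4 (GRMZM2G445944), TCP12 (GRMZM2G093895), TCP30 (GRMZM2G166946), TCP5 (GRMZM2G115516), TCP8 (GRMZM2G092214) and TCP7 (GRMZM2G035944). They were taken by gene identifier from a table of 30378 transcribed loci, and all 6 were found there. The table gives identifiers alone, and the TCP symbols are synonyms in the RefSeq gene table. The set was put together with the values of these same libraries in view, and TCP30 was singled out because its level was higher at low nitrogen. Levels and changes of the 6 genes are therefore given as a description, with no test.

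The libraries were made from RNA of leaf 6, cut at its elongation zone, in maize inbred B73 plants raised in hydroculture. Plants of the 2 HN libraries received 4 mM nitrogen, the control level, and those of the 2 LN libraries received 0.04 mM. For HN, 1 of the labels has nM in place of mM, and mM was used. Whether the 2 libraries of each group are from different plants is not stated, so the spread between them may be technical and p-values measure that spread alone. HN1 and HN2 denote the first and second HN columns of the table, which share a single header name and pair nothing with LN1 or LN2.

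TCP factors are known for setting how long plant cells keep dividing and how they then grow. Members of class I have mostly been linked to growth and proliferation. Members of class II include the CINCINNATA type, which in Arabidopsis and snapdragon limits proliferation in the leaf and is in part restrained by the microRNA miR319, and the TB1 type, which in maize holds back axillary branches. In Arabidopsis the class I factor TCP20 has also been linked to nitrate signalling. The elongation zone lies beyond the zone of division in the grass leaf, where cells lengthen. The class of the 6 maize genes was not analysed here, since no protein sequence was used.

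Levels are FPKM, fragments scaled to transcript length and to the mapped fragments of the library, as deposited, so they can be compared between genes. Total FPKM was 814300 and 1113000 for HN1 and HN2, and 666400 and 710300 for LN1 and LN2. Absolute depth is unknown, and the lowest FPKM values put HN1 at 76.3%, HN2 at 65.0% and LN2 at 90.9% of the depth of LN1. Of the loci fixed as markers of elongating cells (expansins, a xyloglucan endotransglucosylase, plasma membrane aquaporins and tubulins), 28 of 31 reached 1 FPKM in a library, all but PIP1-5, PIP2-6 and expB7, and none was at 0. Their summed FPKM was 9464 and 14790 in the HN libraries and 12600 and 11530 in the LN libraries. The 14 loci of dividing cells (histones, cyclins, PCNA and MCM genes) all reached 1 FPKM in a library and summed to 1690 and 2994 FPKM for the HN libraries and to 853 and 772 for the LN libraries. The 10 loci of mature blade (photosynthesis genes) summed to 7842 and 14020 FPKM for HN and to 4392 and 2531 for LN, with none at 0. The meristem gene kn1 was at 0.0507 and 0.0715 FPKM in the HN libraries and listed at 0 in both LN libraries. The dividing-cell and mature-blade sums were thus lower in both LN libraries, where TCP30 was higher, and their part in its difference was not tested. A sum does not give the direction of each gene. Both PCNA genes had a negative change of LN minus HN. Of 10 tested cyclin genes, 8 had a positive change and 2 a negative one, beside 54.7% positive over all tested loci. The cyclin genes were taken by name, and whether each of them marks dividing cells was not analysed. Directions of the histone and MCM genes are not given here. In RNA from whole tissue, fewer cells of a type and less RNA per cell cannot be told apart.

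TCP30 was at a low level with control nitrogen and about as high as the second most abundant TCP gene at low nitrogen. Its locus lies on chromosome 3 from 194948683 to 194951389 (positions are on B73 RefGen_v3 throughout). TCP30 stood at 0.954 and 2.43 FPKM in HN1 and HN2, and at 11.8 and 9.85 FPKM in LN1 and LN2. Both LN libraries were above both HN libraries, and the lower LN value was 4.05 times the higher HN value. The means were 1.69 ± 1.05 FPKM in HN and 10.8 ± 1.40 in LN (SD, n = 2), a ratio of 6.4. On the log2(FPKM + 1) scale, where the pseudocount shrinks the changes of low genes, the difference of LN minus HN was 2.19, and 84 of the 22489 tested loci had a larger one. Tested loci reached 1 FPKM in 2 or more of the libraries, a filter that all 6 TCP genes passed. TCP30 was above 4.89% of tested loci in HN1 and 21.9% in HN2, against 58.4% in LN1 and 52.7% in LN2.

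TCP4 (chromosome 5, 216656587 to 216657717) was the most abundant of the 6 in every library. It stood at 36.2 and 72.7 FPKM in HN1 and HN2, and at 47.1 and 46.4 FPKM in LN1 and LN2. Both LN values lay between the HN values, which differed 2.01-fold, so the groups overlapped. The means were 54.5 ± 25.8 FPKM in HN and 46.7 ± 0.492 in LN (SD, n = 2), a log2 difference of -0.13. TCP4 made up 65.9% and 67.7% of the summed FPKM of the 6 genes in HN1 and HN2, and 55.1% and 57.3% in LN1 and LN2.

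TCP12 (chromosome 10, 10294381 to 10296488) stood at 5.03 and 11.9 FPKM in HN1 and HN2, and at 11.9 and 11.3 FPKM in LN1 and LN2. HN1 alone was low, and the other 3 libraries lay within 1 FPKM of each other. The means were 8.48 ± 4.87 FPKM in HN and 11.6 ± 0.405 in LN (SD, n = 2), a log2 difference of 0.51 that became -0.03 without HN1.

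TCP5 and TCP8 followed TCP4 in shape at a lower level. TCP5 (chromosome 1, 285380999 to 285385544) stood at 4.83 and 8.72 FPKM in HN1 and HN2, and at 5.66 and 5.14 FPKM in LN1 and LN2. TCP8 (chromosome 3, 158493311 to 158495256) stood at 4.50 and 7.62 FPKM in HN1 and HN2, and at 6.10 and 5.24 FPKM in LN1 and LN2. In both genes HN1 was the lowest library, HN2 the highest and the LN pair lay between them. The log2 differences of LN minus HN were -0.24 for TCP5 and -0.05 for TCP8. Without HN2 the differences of TCP4, TCP5 and TCP8 were positive, at 0.36, 0.13 and 0.28, and that of TCP8 was also positive without LN2, at 0.04.

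TCP7 (chromosome 8, 122433072 to 122435587) was the least abundant of the 6 in both LN libraries. It stood at 3.43 and 4.05 FPKM in HN1 and HN2, and at 2.89 and 3.0 FPKM in LN1 and LN2. The groups did not overlap, and the lower HN value was 1.15 times the higher LN value. The means were 3.74 ± 0.434 FPKM in HN and 2.94 ± 0.0784 in LN (SD, n = 2), a log2 difference of -0.26. With FPKM rescaled to equal library totals the order turned, with 3.48 and 3.0 in HN1 and HN2 and 3.58 and 3.49 in LN1 and LN2.

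**Figure D1:**
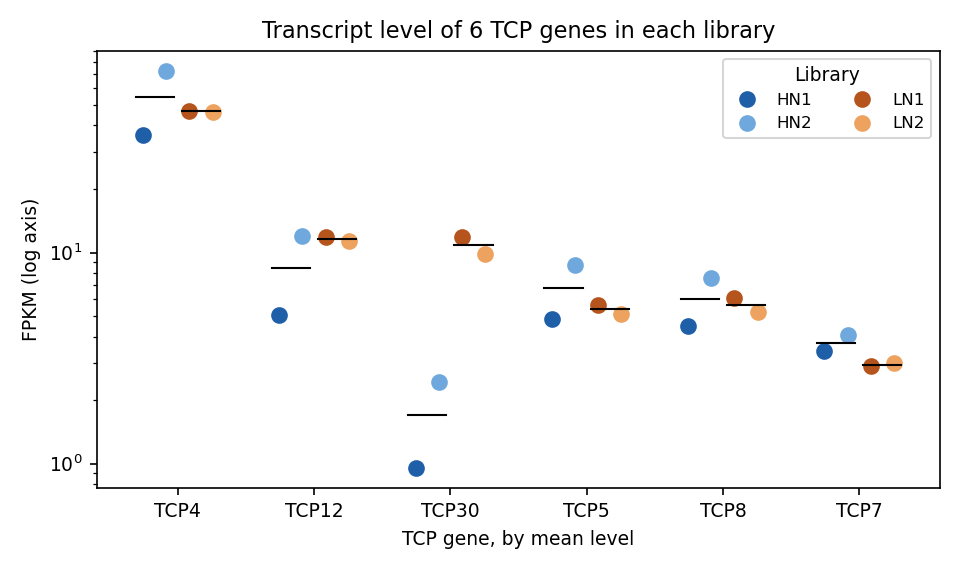
FPKM (log axis) of the 6 TCP genes, ordered by mean level, with a point for each library and a line at each group mean. The LN points of TCP30, at 11.8 and 9.85 FPKM, sit above its HN points at 0.954 and 2.43, while the LN points of TCP4, TCP12, TCP5 and TCP8 fall between the HN points.

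Groups that do not overlap were common in these data. Over the 22489 tested loci, both LN libraries were above both HN libraries at 36.6% and below both at 29.9%, in all 66.4%. The count among the TCP genes was 2 of 6, with TCP30 above and TCP7 below, and nothing is read from it because the genes were chosen on this contrast.

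The order of the 6 genes was the same in both libraries of a group and differed between the groups. In HN1 and in HN2 it ran from TCP4 through TCP12, TCP5, TCP8 and TCP7 down to TCP30. In LN1 and in LN2 it ran from TCP4 through TCP12, TCP30, TCP8 and TCP5 down to TCP7. TCP30 therefore ranked 6 in HN and 3 in LN. In HN the ranges of TCP12, TCP5 and TCP8 overlapped one another, while TCP4, TCP7 and TCP30 stood clear of their neighbours. In LN the ranges of TCP12 and TCP30 overlapped, as did those of TCP8 and TCP5.

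Ratios of genes within a library stay the same when all its values are scaled by 1 factor, though quantile normalization can alter them. TCP30 was 0.0264 and 0.0335 of TCP4 in HN1 and HN2, and 0.251 and 0.212 of it in LN1 and LN2. Against TCP7 the ratio was 0.278 and 0.601 in HN, and 4.10 and 3.29 in LN. Against TCP12 it was 0.190 and 0.204 in HN, and 0.994 and 0.869 in LN. Ratios to TCP5 and TCP8 went from between 0.198 and 0.319 in HN to between 1.88 and 2.09 in LN. For each of the 5 genes, both LN ratios were above both HN ratios. TCP30 made up 1.74% and 2.26% of the summed FPKM of the 6 genes in HN1 and HN2, and 13.9% and 12.2% in LN1 and LN2. The other 5 genes summed to 54.0 and 105.0 FPKM for HN1 and HN2 and to 73.6 and 71.1 for LN1 and LN2, so that both LN sums lay between the HN sums.

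**Figure D2:**
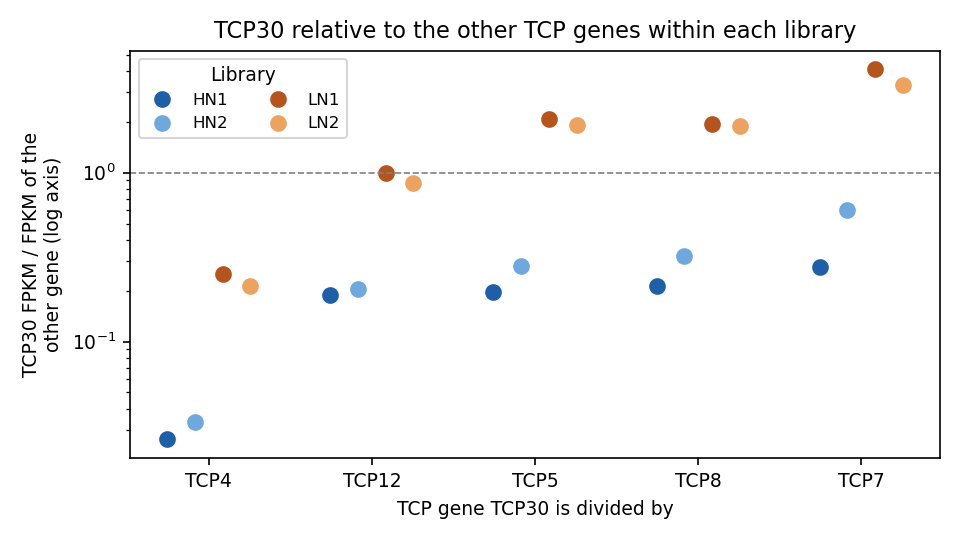
TCP30 FPKM divided by the FPKM of each other TCP gene in the same library (log axis), with the dashed line at equal levels. TCP30 is below all 5 genes in both HN libraries, and in both LN libraries it is above TCP5, TCP8 and TCP7, just under TCP12 and at 0.251 and 0.212 of TCP4.

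The change of TCP30 exceeded the median change of the other 5 genes by 2.32 on the log2(FPKM + 1) scale. The other 5 changes ran from -0.26 for TCP7 to 0.51 for TCP12, with a median of -0.13, while the median over all tested loci was 0.07. The excess was 2.25 with FPKM rescaled to equal totals and 2.15 to 2.43 with any library left out. The directions of the smaller changes depended on scaling. Rescaling to equal totals, an alternative chosen after seeing the data, moved the median of all tested loci by 0.39 and made the changes of TCP4, TCP5, TCP8 and TCP7 positive, at 0.33, 0.17, 0.36 and 0.10. Relative to the median of all tested loci, the change of TCP30 was 2.11 as deposited and 2.10 rescaled. On that relative scale TCP12 was at 0.44 and 0.48, and TCP7 at -0.34 and -0.37. TCP4 was at -0.21 as deposited, -0.14 rescaled and 0.12 with quantile normalization. TCP5 was at -0.31 and -0.30, and TCP8 at -0.12 and -0.11.

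**Figure D3:**
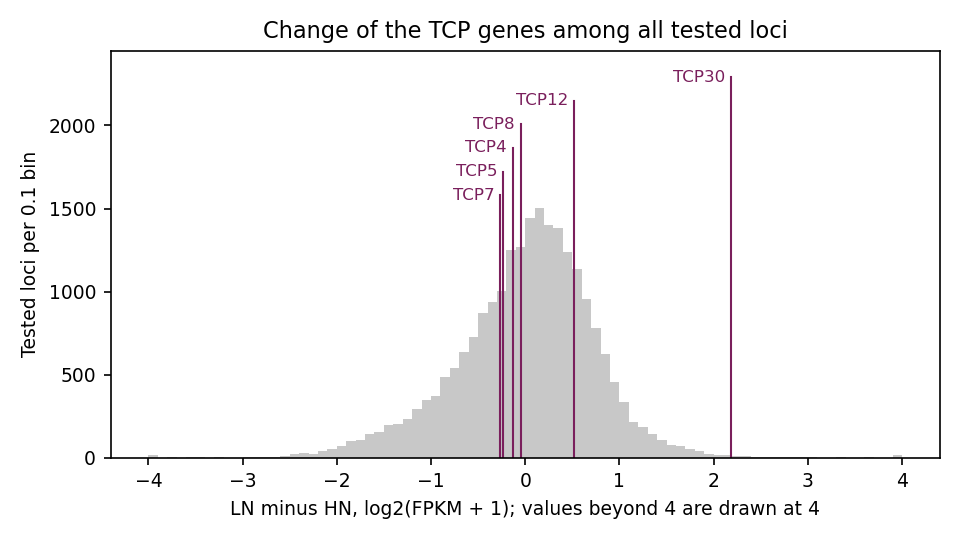
Distribution of the change of LN minus HN on the log2(FPKM + 1) scale over 22489 tested loci (grey, loci per bin of 0.1), with the 6 TCP genes as lines whose heights have no meaning. TCP30 at 2.19 lies in the right tail, and the other 5 genes lie between -0.26 and 0.51.

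All 6 TCP genes were lower in HN1 than in HN2 as deposited, and all but TCP7 were after rescaling to equal totals. The ratio of HN2 to HN1 was 2.55 for TCP30, 2.37 for TCP12, 2.01 for TCP4, 1.81 for TCP5, 1.69 for TCP8 and 1.18 for TCP7. Over the tested loci above 0 in both HN libraries, the median of this ratio was 1.07, and 2.46% of loci had a ratio as high as that of TCP30. The share was 3.28% for TCP12, 6.59% for TCP4, 10.7% for TCP5, 14.1% for TCP8 and 41.3% for TCP7. The FPKM total of HN2 was 1.37 times that of HN1, and after rescaling to equal totals the ratios were 1.86 for TCP30, 1.73 for TCP12, 1.47 for TCP4, 1.32 for TCP5, 1.24 for TCP8 and 0.862 for TCP7. The LN pair differed less. The higher LN value was 1.2 times the lower for TCP30 and between 1.02 and 1.16 times for the other 5 genes, against a median of 1.12 over tested loci. The HN pair differed by a median of 1.40-fold over tested loci, so the HN means carry the larger error here.

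**Figure D4:**
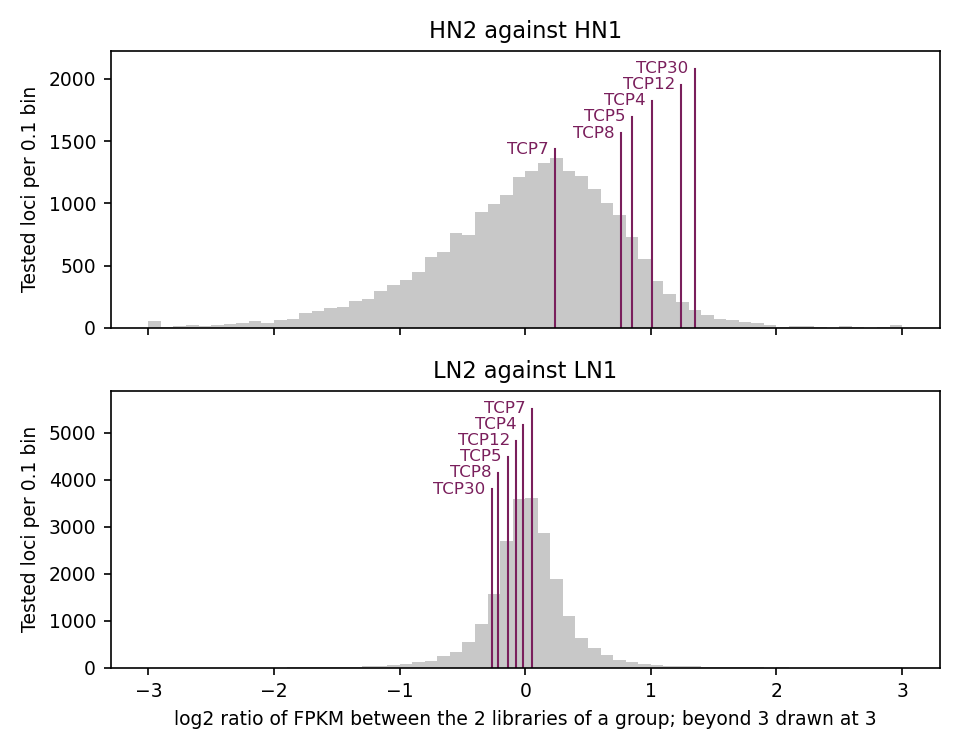
Distribution over tested loci (grey) of the log2 ratio of FPKM between the 2 libraries of a group, for HN above and LN below, with the TCP genes as lines whose heights have no meaning. As deposited, all 6 genes lie to the right of 0 for HN2 against HN1 (TCP7 moves to the left of it after rescaling), where TCP30 and TCP12 lie farthest out, and all 6 lie near 0 for LN2 against LN1.

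The authors' deposited table gave a log2 fold change of 2.59 for TCP30, 0.37 for TCP12, -0.19 for TCP8, -0.32 for TCP4, -0.39 for TCP5 and -0.44 for TCP7. The signs are those of the FPKM differences. For all 6 genes the authors' deposited value lay within 0.1 of the log2 ratio of mean FPKM once the median offset of -0.10 between these measures was allowed for.

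No other locus of the table overlapped any of the 6 TCP loci. The nearest loci to TCP30 were 52.4 kb before it and 40.2 kb after it. The pair of loci before it, GRMZM2G111637 and GRMZM5G898597, share their coordinates. Their changes on the log2 scale were -0.20 and -1.02 (limma adjusted p = 0.579 and 0.109). GRMZM2G390160 after it had a log2 change of -0.77 (limma adjusted p = 0.0933). All 3 values were negative where that of TCP30 was positive, and none passed the threshold. Over the nearest loci on both sides of the 6 genes, 10 of 13 were tested and 0 passed in limma, at an adjusted p threshold of 0.05 over all tested loci, beside 4.98% of all tested loci. An unadjusted p under 0.05 was found at 5 of them, of which 2 were higher and 3 lower in LN, beside 32.3% of all tested loci (15.9% higher and 16.4% lower).

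Profiles most like that of TCP30 were found among 1351 tested loci with a symbol, a single gene and a mean of at least 5 FPKM. Likeness was the Euclidean distance over the 4 libraries between log2(FPKM + 1) values, each gene centred on its own mean. These genes are near TCP30 because they changed in the same contrast, so the list is a description. ZHD13, a zinc-finger homeodomain gene, was nearest at a distance of 0.29, with 2.65 and 7.25 FPKM in HN1 and HN2 and 29.6 and 22.6 FPKM in LN1 and LN2. ZHD13 shared with TCP30 the higher value in HN2 than in HN1 and in LN1 than in LN2. The next were the legumain protease gene see2b at 0.58, Laccase-17 at 0.66, the cytochrome P450 gene CYP714B3 at 0.69, the wax gene CER1 at 0.80 and MGL3 at 1.05. Their LN means were between 2.78 and 7.10 times their HN means.

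The other TCP genes had much closer neighbours among the same loci. Those of TCP12 were the aquaporin genes TIP2-1 (distance 0.12) and PIP2-4 (0.20), of the vacuolar and the plasma membrane. PIP2-4 stood at 232 and 417 FPKM in HN1 and HN2, and at 449 and 405 FPKM in LN1 and LN2, so that HN1 was its low library as well. For TCP4 dedA was near (0.07). Those of TCP5 were pdh2 (0.02) and mbd106 (0.05), of TCP8 IDDveg9 (0.02) and sat3 (0.05), and of TCP7 DIP1 (0.01) and ATSWI3B (0.04). Among the TCP genes themselves, TCP4, TCP5 and TCP8 were 0.20 to 0.28 apart, and TCP30 was 1.69 from TCP12 and between 2.24 and 2.50 from the other 4.

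TCP20 (GRMZM2G034638, chromosome 8, 160526121 to 160529186) was the 1 further TCP gene matched by symbol in the table. It stood at 0.709 and 0.635 FPKM in HN1 and HN2, and at 0.663 and 9.88 FPKM in LN1 and LN2. LN2 alone was high, at 13.9 times the highest of the other 3 libraries, and the gene did not reach the filter. The authors' deposited table gave it a log2 fold change of -0.24, where the log2 ratio of mean FPKM was 2.97. Such a gap is rare in the table. The measures differed by more than 2 from their median offset at 36 of 29090 loci. TCP20 shares its coordinates with GRMZM2G330719, which stood at 2.96, 4.58, 4.53 and 4.73 FPKM in HN1, HN2, LN1 and LN2. No direction is given for TCP20. The maize genes tb1 and bad1, also TCP genes, were not analysed here.

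Some cell cycle genes are bound by class I TCP factors in other plants. Both PCNA genes had lower values in LN without passing the threshold. The cyclin genes were taken by name, and which of them such factors bind was not analysed. Of 10 tested cyclin genes 8 had positive changes, beside 54.7% of all tested loci, and none passed the threshold. PCNA, the sliding clamp of DNA replication, has promoter elements bound by the rice PROLIFERATING CELL FACTORS. pcna2 stood at 35.0 and 54.5 FPKM in HN1 and HN2, and at 17.1 and 12.2 FPKM in LN1 and LN2, and PCNA at 23.4, 46.4, 12.8 and 9.45. In both genes each LN library was below each HN library, as at 29.9% of all tested loci. Neither passed the threshold, with log2 changes of -1.54 (SE 0.30) and -1.5 (SE 0.36) and limma adjusted p = 0.0510 and 0.0690. The authors' deposited table called both lower (q = 3.15e-05 and 0.000139), as it did 13.6% of the tested loci. In limma both passed under quantile normalization (adjusted p = 0.0313 and 0.0424). With all loci above 0 tested the limma adjusted p was 0.0823 and 0.108. The log2 changes were -1.85 and -1.98 without HN1, and -1.22 and -1.02 without HN2. Without LN1 they were -1.76 and -1.70, and without LN2 -1.31 and -1.30. A group then held 1 library, so only the changes are given. Of 10 tested cyclin genes, 0 passed in limma, 3 had an unadjusted p under 0.05, all of them higher in LN, beside 15.9% of all tested loci, and the authors' deposited table called 1 higher, beside 5.76%. Their changes ran from -0.08 to 1.03 with a median of 0.27. The gene called by the authors' deposited table was Cyclin-SDS. It was also among those with an unadjusted p under 0.05 and had the highest change of the list. Cyclin-SDS was under 1 FPKM in both HN libraries, so it reached the filter through its LN values alone. With FPKM rescaled to equal totals the median of the 10 cyclin genes was 0.66, all 10 changes were positive and 2 passed in limma. On that scale the median of all tested loci was 0.47, and 1052 of 22489 tested loci were called higher. The abundant cycD2, a D-type cyclin gene, stood at 38.5 and 52.4 FPKM in HN1 and HN2, and at 39.4 and 45.5 FPKM in LN1 and LN2 (log2 change -0.08, limma adjusted p = 0.832). cyclin4 stood at 25.9 and 24.5 FPKM in HN1 and HN2, and at 43.7 and 43.3 FPKM in LN1 and LN2, without passing either (log2 change 0.77, limma adjusted p = 0.0701).

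Of 22 tested genes of cytosolic ribosomal proteins, whose promoters hold a class I TCP element in Arabidopsis, 7 fell in LN, beside 3.8% of all tested loci called lower. The other 15 did not pass and 0 rose. All 22 had negative changes, with a median of -1.68 against 0.07 over all tested loci. The authors' deposited table called 21 of them lower, beside 13.6% of tested loci. The summed FPKM of the dividing-cell markers (1690 and 2994 in HN, 853 and 772 in LN) and of the mature-blade markers (7842 and 14020 in HN, 4392 and 2531 in LN) was also lower in both LN libraries, and their part in these values was not tested. The median change of the ribosomal protein genes was -1.21 with FPKM rescaled to equal totals and -1.0 under quantile normalization. rps24 fell from 284 ± 94.7 to 51.1 ± 9.41 FPKM (SD, n = 2) and arpp2a-2 from 110.0 ± 35.3 to 21.4 ± 4.55 (limma adjusted p = 0.0436 and 0.0434). RPL10 fell by 2.21 and rps13 by 1.94 on the log2 scale (limma adjusted p = 0.0446 for both). No gene of this list passed when LN1 or LN2 was left out, where the spread rests on the HN pair, with a pseudocount of 0.1 in place of 1, or with all loci above 0 tested.

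Families tied to class II TCP factors and miR319 in other plants held 23 tested genes. Of these 1 passed the threshold, lox1, beside 4.98% of all tested loci called in either direction. Growth-regulating factors and their GIF partners promote leaf growth, and of 13 tested genes 0 passed in limma, 0 had an unadjusted p under 0.05 and the authors' deposited table called 0. Their median change was 0.29, and it was 0.62 with FPKM rescaled to equal totals, where the median of all loci was 0.47. GRF4 stood at 13.7 and 22.1 FPKM in HN1 and HN2, and at 15.0 and 15.7 FPKM in LN1 and LN2, and GRF10 at 11.1, 15.0, 16.6 and 15.8. In GRF4 the LN pair lay between the HN libraries, as in TCP4. Some lipoxygenases act in jasmonate synthesis, and a lipoxygenase gene is a target of CINCINNATA-type TCP factors in Arabidopsis. Which of the maize genes act in it was not analysed here. Of 8 tested lipoxygenase genes lox1 fell, from 346 ± 30.4 to 15.3 ± 5.09 FPKM (limma adjusted p = 0.0202), which is 1 of 8 beside 3.8% of all tested loci called lower. The authors' deposited table called 3 of the 8 lower, which were lox1, lox6 and lox11, beside 13.6% of tested loci, and 0 higher. In the 8 genes 4 changes were positive and 4 negative, beside 54.7% positive over all tested loci. The median change of the 8 was -0.18 as deposited and 0.20 with FPKM rescaled to equal totals. The locus of lox1 runs from 168738872 to 168882335 on chromosome 3 and may hold more than this gene. Knotted-like and ligule genes keep meristem cells undifferentiated or place the ligule, and of 2 tested genes 0 passed in limma. The ligule gene lg1 stood at 0.857 and 1.01 FPKM in HN1 and HN2, and at 2.26 and 2.35 FPKM in LN1 and LN2 (log2 change 0.77 and limma adjusted p = 0.0842, with an unadjusted p of 0.0122), and the authors' deposited table called it higher (q = 0.038), as it did 5.76% of tested loci. knox7 had a log2 change of -0.26 (limma adjusted p = 0.533). The boundary gene CUC2 did not reach the filter, and miR319 genes were not analysed here.

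In the list of genes linked to maize tb1 and strigolactone signalling, 2 genes were tested and 1 fell, beside 3.8% of all tested loci called lower. D14a, related to the strigolactone receptor D14, stood at 37.0 and 43.1 FPKM in HN1 and HN2, and at 1.58 and 1.33 FPKM in LN1 and LN2 (log2 change -4.06, SE 0.21, limma adjusted p = 0.0127). D53, whose rice counterpart is the repressor that D14 helps to remove, stood at 7.09 and 7.37 FPKM in HN1 and HN2, and at 6.95 and 6.49 FPKM in LN1 and LN2, and did not pass (log2 change of -0.09 with limma adjusted p = 0.776). The grassy tillers gene gt1 and tin1 did not reach the filter.

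**Figure D5:**
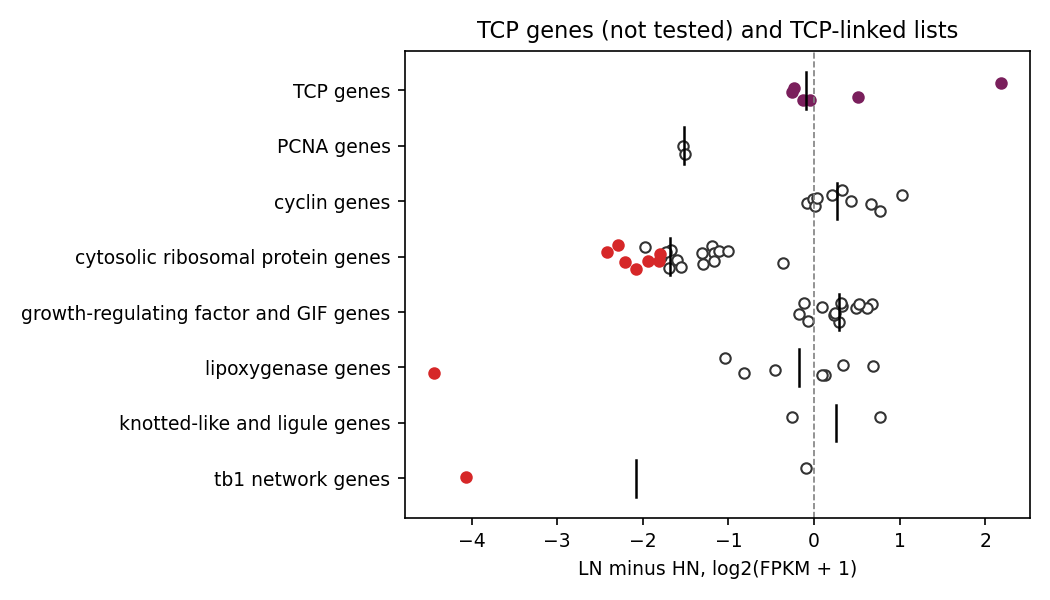
Change of LN minus HN on the log2(FPKM + 1) scale for the 6 TCP genes (filled purple, not tested) and for the tested genes of each list, red where the limma adjusted p was under 0.05 and open otherwise, with a bar at each median. The red points are 7 ribosomal protein genes, lox1 and D14a, all lower in LN, and TCP30 at 2.19 is the point farthest to the right.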

How the data were processed

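The authors' deposited table gives FPKM for each library. It also holds a p-value, a q-value and a log2 fold change of LN against HN computed by the authors, per the file headers. TopHat2, edgeR and B73 RefGen_v3 are named in the submitters' processing notes with no versions. The assembler is not given in the sources used here. Of 31324 rows, 30378 loci remained after repeats of a locus under another gene name were merged. Gene names were matched to RefSeq symbols (assembly Zm-B73-REFERENCE-NAM-5.0, names alone), and 16691 matched 1 gene. Lists were made on symbols and synonyms, without loci of several genes, names on several loci and organelle genes. No sequences were used.

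limma 3.58.1 (R 4.3.3) was run with trend on log2(FPKM + 1), two-sided, with group as the sole term, loci at 1 FPKM or more in 2 libraries and Benjamini-Hochberg adjustment over all tested loci. The threshold was an adjusted p of 0.05, at which 266 loci were higher and 855 lower in LN. In 10 simulated sets of 22489 loci for LN against HN, 42.1% of changes of log2 size 2 and 79.9% of size 4 were called. Of the calls in these sets, 3.17% were false. Between the libraries of a group, the median ratio of higher to lower FPKM over tested loci was 1.40 for HN and 1.12 for LN. How closely the simulated spread follows these gaps was not tested, so the rates describe the simulated sets alone. Relative depth is the densest ratio of FPKM to LN1 among loci under 0.15 FPKM in both libraries. From each list the text names at most 4 genes that passed, ordered by adjusted p, or else the 2 most abundant. lg1, CUC2, gt1 and tin1 are named as members of short lists. The 6 loci nearest to TCP30 and the 2 nearest to each other TCP gene are named too, except 1 that is not reported here. The TCP genes and lists were chosen with earlier results of these data known. Alternatives were another pseudocount, other filters, quantile normalization, rescaling to equal FPKM totals and leaving out each library.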

Additional observations from a re-analysis of the deposited data

How the results depend on the processing

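No paired analysis was possible because both HN columns carry the same name and no replicate number. The loci called numbered 101 with a pseudocount of 0.1, 1 with all loci above 0 tested, 2720 under quantile normalization, 1814 with FPKM rescaled to equal totals (chosen after seeing the data) and 76 to 10470 with a library left out, against 1121. With FPKM rescaled, 42.0% of calls were lower in LN, against 76.3%. The change of TCP30 was 2.74 with a pseudocount of 0.1 and its excess over the other TCP genes 2.87. With a library left out its change ran from 1.78 to 2.59. The change of TCP4 was 0.17 under quantile normalization, 0.33 rescaled and -0.63 to 0.36 with a library left out. For TCP5 it was 0.17 rescaled and -0.60 to 0.13, and for TCP8 0.36 rescaled and -0.37 to 0.28. For TCP7 it was -0.44 under quantile normalization and 0.10 rescaled, and for TCP12 it ran from -0.034 (without HN1) to 1.06 with a library left out. PCNA and cyclin genes called were 1 with a filter at 5 FPKM, 3 under quantile normalization, 2 rescaled and 0 to 4 with a library left out, against 0. Ribosomal protein genes called were 0 of 22 with a pseudocount of 0.1 and with all loci tested, against 7 of 22. They were 11 of 21 with a filter at 5 FPKM, 16 of 22 under quantile normalization and 14 of 22 rescaled. Class II partners called were 0 with all loci tested and 1 to 10 with a library left out, against 1, and tb1 network genes called were 0 with all loci tested, against 1. In each fit with a library left out, 1 group held 1 library, so the spread came from the pair of the other group alone. The numbers called in those fits cannot be compared with the main ones, and no conclusion is drawn from them. The causes of the other differences were not tested. With 2 libraries a group and no read counts, precision is limited, and the changes of TCP4, TCP12, TCP5 and TCP8 were smaller than the gap between the HN libraries.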

Other observations

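TCP20 was among a few loci with so large a gap between the LN libraries. Of 24249 loci at 0.5 FPKM or more in LN1, 3 had a ratio of LN2 to LN1 as high as the 14.9 of TCP20, that locus included. After rescaling to equal FPKM totals, TCP7 stood at 3.48 and 3.0 in HN1 and HN2 and at 3.58 and 3.49 in LN1 and LN2, a spread of less than 1 FPKM over all 4 libraries. TCP30 stood at 0.968, 1.81, 14.7 and 11.4 on that scale.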
